A study of Drosophila melanogaster with 2 samples.

Results

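The genes described here encode the proteins of the small subunit of the cytosolic ribosome. They were taken as every protein-coding gene of the dm6 annotation whose symbol begins with RpS, plus sta, which encodes the small-subunit protein named RpSA in mammals. This gave 39 of 13945 protein-coding genes. The data are ChIP-seq peak lists, in which DNA fragments recovered with an antibody are sequenced and enriched intervals are listed with a summit and a score. The chromatin came from whole Drosophila melanogaster embryos of strain CG3407-GFP, both sexes pooled, collected 0 to 14 h after laying. The line is transgenic and stably expresses CG3407, a predicted zinc-finger protein, with GFP fused to its C terminus, and per the labels there were 2 biological replicates, which form the only group. The labels disagree on the libraries: their free text says input control, while the assay and antibody fields say transcription factor ChIP. They are taken here as ChIP, because the peak lists derive from them against a separate control file. The sources used here do not state which promoter drives the transgene or which cells of the embryo carry the protein, and untagged flies were not analysed here.

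The small subunit binds mRNA and reads its codons, and most of its proteins are needed in every cell. In flies many of these genes are Minute loci, where loss of a single copy slows growth and shortens bristles. Their promoters are known for a polypyrimidine initiator, a run of C and T at the transcription start site (TSS) that takes the place of the usual initiator, and many hold the DRE, the element bound by the factor Dref, or motif 1, the element bound by M1BP.

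The sequence around the TSS shows where such runs lie. The lines that follow give dm6 sequence from RefSeq, on the gene's strand, from 80 bases before to 20 after the TSS nearest the summit, or the canonical TSS where there was no summit. They show 3 genes with high scores and both copies of RpS28, RpS10 and RpS19. Capitals mark the longest run of C and T that has at least 7 bases and touches the 10 bases on either side of the TSS.
RpS27 (chr3R:25247494-25247594, minus strand): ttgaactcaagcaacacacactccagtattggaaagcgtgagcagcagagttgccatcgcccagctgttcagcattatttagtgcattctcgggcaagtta
RpS4 (chr3L:13041721-13041821, plus strand): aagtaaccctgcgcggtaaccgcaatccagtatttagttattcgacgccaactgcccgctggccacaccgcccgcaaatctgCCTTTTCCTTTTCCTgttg
RpS25 (chr3R:11216267-11216367, minus strand): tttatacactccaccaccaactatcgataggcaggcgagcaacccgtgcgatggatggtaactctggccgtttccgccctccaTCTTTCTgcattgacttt
RpS28b (chrX:9554543-9554643, plus strand): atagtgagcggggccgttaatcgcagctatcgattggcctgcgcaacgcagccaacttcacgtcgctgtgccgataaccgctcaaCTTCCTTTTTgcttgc
RpS28a (chr3R:30022628-30022728, minus strand): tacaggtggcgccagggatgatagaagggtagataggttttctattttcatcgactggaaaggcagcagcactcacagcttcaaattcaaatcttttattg
RpS10b (chrX:19597951-19598051, plus strand): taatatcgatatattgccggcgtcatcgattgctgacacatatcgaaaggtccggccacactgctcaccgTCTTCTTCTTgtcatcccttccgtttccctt
RpS10a (chr3R:27652680-27652780, plus strand): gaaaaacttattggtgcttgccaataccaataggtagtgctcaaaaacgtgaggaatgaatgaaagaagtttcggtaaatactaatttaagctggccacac
RpS19a (chrX:16637814-16637914, plus strand): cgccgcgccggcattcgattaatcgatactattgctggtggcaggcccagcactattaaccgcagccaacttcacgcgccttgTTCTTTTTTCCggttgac
RpS19b (chr3R:23933510-23933610, minus strand): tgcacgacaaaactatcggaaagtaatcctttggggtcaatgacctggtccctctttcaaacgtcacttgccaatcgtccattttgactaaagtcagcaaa

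The run began 2 bases after the annotated TSS in RpS4, 3 bases after it in RpS25 and RpS19a and 5 bases after it in RpS28b, and it spanned 15 bases in RpS4. RpS27, with the highest score of all, had no such run, and neither did RpS10a, RpS19b or RpS28a. The second copies are printed for 3 pairs only. Over all 6 second copies without a summit in the final peak list, 1, which is not printed, had a run.

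A summit within 500 bp of any TSS of a gene was counted for that gene. The final peak list, kept by the irreproducible discovery rate (IDR) procedure, holds 4089 intervals, which are those that score highest among the pooled candidates and carry the same scores there. An IDR summit lay at 26 of the 39 genes, or 66.7% (95% Wilson interval 51.0 to 79.4, counting error only). The same call was met by 14.1% of all protein-coding genes, 1963 of 13945. Among the 54 large-subunit genes 41 had an IDR summit (75.9%, 63.1 to 85.4), and among the 26 genes of the mitochondrial small subunit 8 had one (30.8%, 16.5 to 49.99). In the IDR list the interval of the mitochondrial genes ended below that of the cytosolic small subunit. The intervals of both cytosolic subunits overlapped widely. Among the 4089 highest candidates of replicate 1 the mitochondrial interval reached 49.99 and that of the small subunit began at 48.4, so they overlapped. In replicate 2 they did not (46.1 and 48.4), and with any pooled candidate they did (80.6 and 70.3). No test between these lists was made, and neighbouring genes can share a summit.

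Each replicate alone gave nearly as many. With the 4089 highest candidates of a replicate, 25 of 39 genes (64.1%) had a summit in replicate 1 and 25 in replicate 2, against 14.1% of all protein-coding genes in each. The genes were not fully the same. Of the 26 genes with an IDR summit, 24 were among the highest candidates of replicate 1, 23 among those of replicate 2 and 21 among those of both, a call met by 10.5% of all protein-coding genes. Over the 31 genes with a candidate in both replicates, Spearman's rho of their ranks was 0.88, given as a description, since both replicates were set against 1 control file. Over the same 31 genes the summits lay a median of 18 bp apart between replicates and at most 451 bp.

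**Figure D1:**
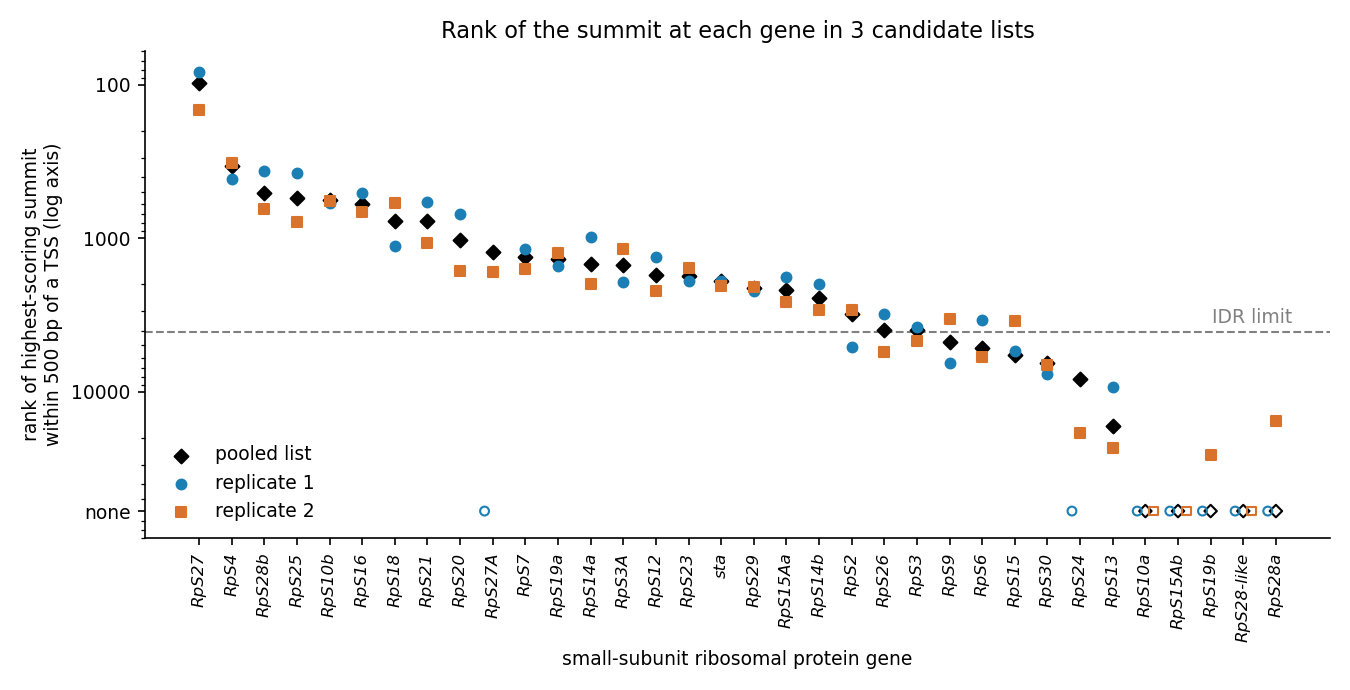
Rank of the highest-scoring summit within 500 bp of a TSS of 34 of the 39 genes, on a log axis, in the pooled list (diamonds), replicate 1 (circles) and replicate 2 (squares); open symbols mark lists with no candidate there, and the dashed line is rank 4089. The plotted genes run from RpS27 at rank 98 to 5 genes with no pooled candidate, and the replicates mostly stay close together.

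Proteins of the head of the subunit, the part that swivels as tRNA and mRNA move, were compared with those of the body and platform. A summit lay at 13 of 18 head genes (72.2%, 49.1 to 87.5) and at 13 of 20 body and platform genes (65.0%, 43.3 to 81.9). The median IDR rank was 1034 for the head and 1726 for the body and platform, and the ranks ran from 507 to 3988 and from 98 to 3961. The ranges overlapped almost fully.

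Among body and platform genes RpS27, which encodes a zinc-binding protein, stood highest. Its IDR score was 1186 (rank 98), and its scores were 549 in replicate 1 (rank 82) and 619 in replicate 2 (rank 145). Scores have a scale of their own in each list, so lists are compared by rank alone. The peak spans chr3R:25247361-25247678 (dm6), and its summit lies 14 bp upstream of the RpS27 TSS and 130 bp from the start of Nup37, a nuclear pore gene on the other strand. RpS4 followed at 705 (rank 338), with 274 in replicate 1 (rank 409) and 427 in replicate 2 (rank 323). The third was RpS21, known in flies from mutants with overgrown blood-forming organs, at 461 (rank 777), with 229 in replicate 1 (rank 582) and 228 in replicate 2 (rank 1068). Both replicates gave these 3 genes in the same order. RpS7 (340), RpS14a (320), RpS3A on chromosome 4 (318), RpS23, a protein of the decoding centre (289), and sta (274) had IDR ranks from 1317 to 1910. RpS15Aa, RpS14b, RpS2 and RpS26 closed the group, with IDR scores of 252, 233, 197 and 166.

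Among head genes the highest 4 lay within a narrow range of scores. RpS28b had 578 in the IDR list (rank 507), 289 in replicate 1 (rank 363) and 298 in replicate 2 (rank 642). RpS25, which in other species is needed by some viral internal ribosome entry sites, had 555 (rank 546), 285 (rank 375) and 269 (rank 780). RpS10b had 547 (rank 565), 228 (rank 588) and 317 (rank 570). RpS28b ranked above RpS25 in both replicates, while RpS10b ranked below both in replicate 1 and above both in replicate 2. RpS16, whose tail reaches towards the tRNA in the peptidyl site, had 531 (rank 595), 244 (rank 507) and 290 (rank 679). RpS18 had 462 (rank 774), 156 (rank 1121) and 313 (rank 586), and RpS20 had 393 (rank 1034), 206 (rank 695) and 180 (rank 1638). RpS18 stood higher in replicate 2 and RpS20 in replicate 1, and over the 25 genes with an IDR summit and a candidate in both replicates, 17 ranked higher in replicate 1. RpS27A, which is made as a fusion with ubiquitin (355), RpS19a (333), RpS12, needed within Minute cells for their elimination by cell competition (292), RpS29 (256) and RpS3, which also has DNA repair activity (166), stood lower in the head group.

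Of these, RpS3 and RpS26 stood closest to the end of the IDR list, at ranks 3988 and 3961. In replicate 2 both fell below rank 4089, at 4691 and 5523, and in replicate 1 both were above it, at 3799 and 3140. RpS2 was below it in replicate 1 alone (rank 5090, against 2947 in replicate 2). RpS27A had no candidate in replicate 1, where the nearest lay 22.7 kb away, although it ranked 1648 in replicate 2 and 1231 in the IDR list. Within 20 kb of its TSS replicate 1 listed no summit at all, the pooled list 1 and replicate 2 12. Its single summit also counts for Ip259, an unrelated gene whose transcripts begin at the same base.

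Of the 13 genes without an IDR summit, 7 had a candidate in the pooled list, a call met by 33 of the 39 genes (84.6%) and by 41.6% of all protein-coding genes. RpS9, a protein that affects decoding accuracy, came closest to the limit, at pooled rank 4724. It had rank 6529 in replicate 1 (at −39 bp) and 3342 in replicate 2 (at 111 bp). RpS6, the phosphorylation target of S6 kinase in the TOR pathway, had pooled rank 5220, with 3428 in replicate 1 and 5918 in replicate 2. The candidate in replicate 1 lay at −10 bp, but that in replicate 2 lay at −461 bp and also counts for bys. At −5 bp replicate 2 had a candidate of rank 8164. RpS15 had 5777, with 5446 in replicate 1 (at −265 bp) and 3444 in replicate 2 (at 111 bp). These 3 genes were each above the limit in 1 replicate. RpS30, made as a fusion with a ubiquitin-like protein, had pooled rank 6502, with 7618 in replicate 1 and 6745 in replicate 2. RpS24 had 8331 and RpS13 16851 in the pooled list. RpS24 had no candidate in replicate 1 and rank 18481 in replicate 2. RpS13 had 9274 in replicate 1 and 23175 in replicate 2.

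The other 6 genes without an IDR summit were second copies. The 39 genes make up 32 subunit proteins, of which 26 have 1 gene and 6 have more. Of the 26 single genes 19 had an IDR summit. Of the 6 proteins with several genes, 5 had an IDR summit at exactly 1 of them and RpS14 at both. The pairs were far apart in the lists. RpS10b ranked 565 in the IDR list, and RpS10a had no candidate in any list. RpS19a had an IDR score of 333 (rank 1369), with 132 in replicate 1 (rank 1511) and 210 in replicate 2 (rank 1242), while RpS19b, known for its expression in the germline, had 1 candidate, of rank 25685 in replicate 2. RpS28b ranked 507, RpS28a had 1 candidate, of rank 15546 in replicate 2, and RpS28-like had none. RpS15Aa had an IDR score of 252 (rank 2163), with 118 in replicate 1 (rank 1795) and 133 in replicate 2 (rank 2622), and RpS15Ab had no candidate.

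RpS14a and RpS14b, which lie in tandem on the X, both had an IDR summit. RpS14a had an IDR score of 320 (rank 1481), with 168 in replicate 1 (rank 985) and 160 in replicate 2 (rank 1997). RpS14b had 233 (rank 2443), with 110 in replicate 1 (rank 1999) and 125 in replicate 2 (rank 2932). RpS14a was the higher in both replicates. Reads from near-identical copies can be placed at the wrong one, so the sequence within 200 bp of each of the 39 TSSs was cut into words of 50 bases. Every word occurred once on the chromosome arms, for the second copies as for the others. The count was of exact words near the TSS, and the sources used here name no aligner, so misplacement of reads itself was not tested. Expression of the copies was not measured, and whether it goes with the difference in rank was not tested.

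The summits lay close to the TSS itself. Relative to the nearest TSS of the gene, the median position over the 26 genes was −24.5 bp, with quartiles of −32.5 and −6.75 bp. Over all 1963 protein-coding genes with an IDR summit the median was −144 bp, with quartiles of −232.5 and −57 bp. Within 60 bp of the TSS lay 23 of the 26 summits (88.5%, Wilson interval 71.0 to 96.0), against 15.3% (13.8 to 16.9) of those of all such genes. The large-subunit genes resembled the small-subunit genes, with a median of −28 bp and 34 of 41 summits within 60 bp. The mitochondrial genes did not, with a median of −200 bp and 0 of 8 within 60 bp (upper Wilson limit 32.4%). In the single replicates the median of the small-subunit genes was −29 bp in replicate 1 and −14 bp in replicate 2, a mean of −21.5 ± 10.6 bp (SD, n = 2), and that of all protein-coding genes was −143 ± 14.1 bp (SD, n = 2). The distance between these means was larger than either spread between replicates; with 2 replicates no test was made.

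**Figure D2:**
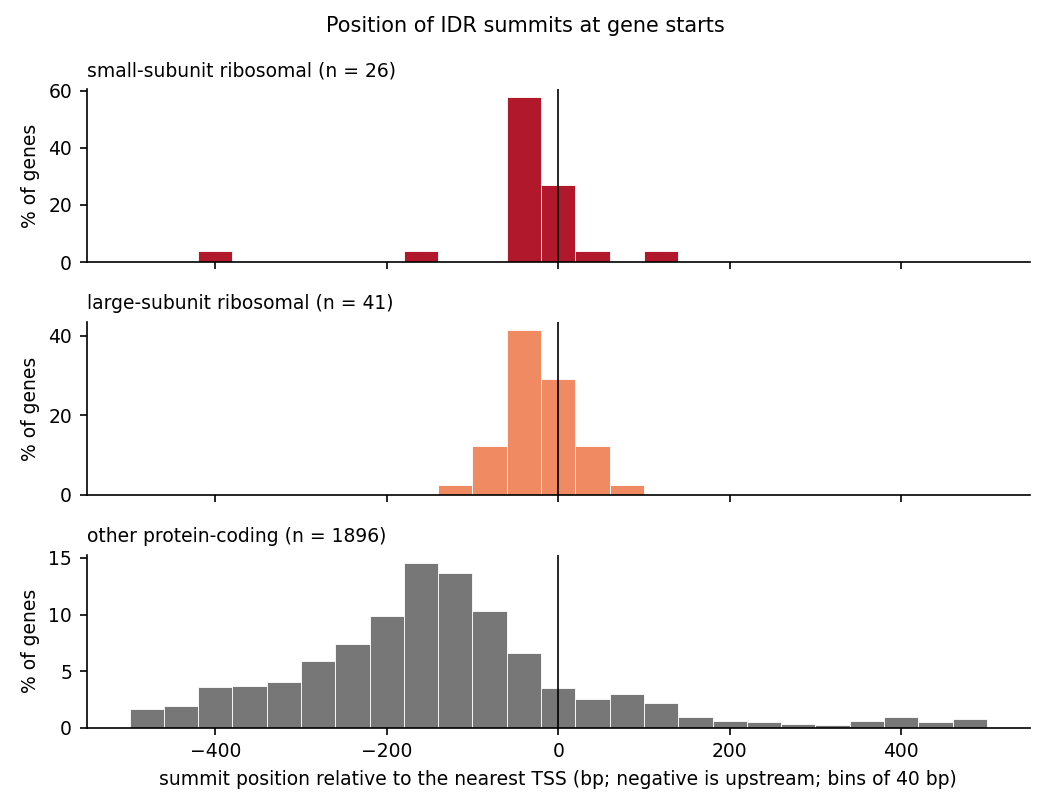
Share of genes by the position of their highest-scoring IDR summit relative to the nearest TSS, in bins of 40 bp, for 26 small-subunit genes, 41 large-subunit genes and 1896 other protein-coding genes; each panel has its own vertical scale. Both ribosomal sets peak just upstream of the TSS, and the other genes peak farther upstream.

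The share of summits upstream of the TSS was 84.6% in the small-subunit genes (22 of 26, Wilson interval 66.5 to 93.9) and 84.8% in all protein-coding genes with an IDR summit. The replicates apart did not place these shares so close. In replicate 1 the share was 20 of 25 small-subunit genes (Wilson interval 60.9 to 91.1) and 87.4% of all protein-coding genes, and in replicate 2 it was 16 of 25 (64.0%, 44.5 to 79.8) and 81.9%. A gene that starts upstream on the opposite strand within 1000 bp was present for 22 of the 39 genes, and 16 of these 22 had an IDR summit, as did 10 of the other 17. Of all protein-coding genes 22.7% with such a neighbour and 8.75% without one had an IDR summit. The median position was −24.5 bp with such a neighbour and −24 bp without one, against −140 and −153 bp in all protein-coding genes. At 14 of the 26 genes another annotated gene also started within 500 bp of the summit. At none was that start nearer than the ribosomal one, but the start of Ip259 was at the same distance.

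Individual summits were often close between the 2 replicates, as at RpS27 (−13 and −14 bp), RpS3 (−30 bp in both), sta (−24 and −19 bp) and RpS15Aa (28 and 30 bp). They lay within 50 bp of each other at 21 of the 31 genes with a candidate in both replicates. Among those farther apart were RpS26 (−104 and −4 bp) and RpS12 (−70 and 9 bp). RpS20 and RpS23 were among the 3 genes whose IDR summit lay more than 60 bp from the TSS. RpS20 had it at −165 bp, with −155 and −144 bp in the replicates, and there the start of CG17271 on the other strand was 168 bp away. RpS23 had 2 IDR summits, at −416 bp (score 289) and at −39 bp (score 203). The first was the one nearest the edge of the 500 bp window, and replicate 1 ranked a candidate at 1 bp (1896) above one at −417 bp (1994). Outside the window, the nearest IDR summit of any gene with none inside it lay 923 bp from its TSS, at RpS19b.

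**Figure D3:**
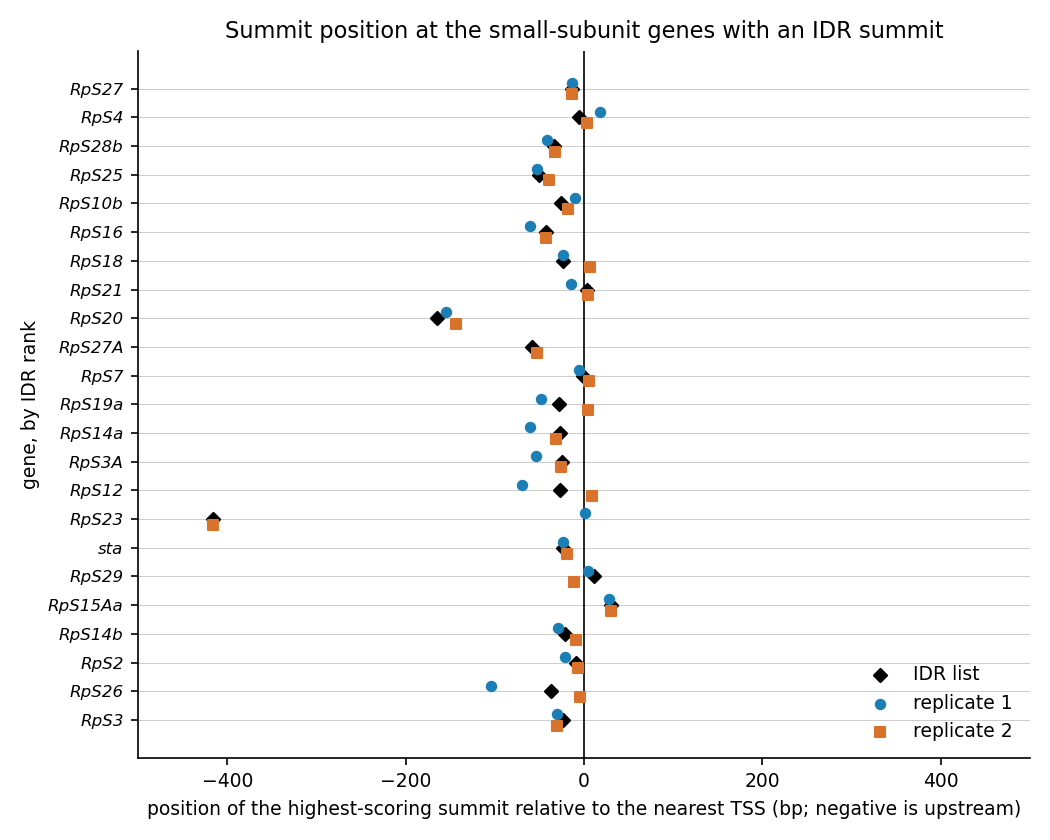
Position relative to the nearest TSS of the highest-scoring summit at 23 of the 26 genes with an IDR summit, ordered by IDR rank, in the IDR list (diamonds), replicate 1 (circles) and replicate 2 (squares). All plotted genes but RpS20 and RpS23 have their IDR summit within 60 bp of the TSS.

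Peak widths at the 26 genes ran from 117 bp at RpS20 to 416 bp, the most common width in the list, which 11 of the 26 shared. The interval itself covered a TSS of the gene at 24 of 26. Every chromosome arm held members with an IDR summit: 8 of 9 on X, 7 of 12 on 3R, 4 of 6 on 2L, 3 of 4 on 3L, 3 of 7 on 2R and the 1 gene on chromosome 4. Many ribosomal protein genes host snoRNAs, which guide rRNA modification, and 10 of the 13 with an annotated snoRNA inside had an IDR summit, against 16 of the 26 without one. The same shares over all protein-coding genes are not given here for the arms or for snoRNA hosts, so both splits are descriptions only.

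The summits of these genes were richer in G and C than those at other promoters. Within 50 bp of the summit the median GC content was 48.5% at the 26 genes, with quartiles of 43.8% and 51.5%. It was 46.5% at the large-subunit genes and 31.7% at the 1414 distinct promoter summits of all other genes with an IDR summit, with quartiles of 25.7% and 40.6%. Other genes are, here and below, all but the small-subunit genes, so they include the large-subunit genes. The other summits also lay farther from the TSS, and whether GC content goes with position was not tested.

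A run of at least 7 pyrimidines at the TSS was present in 16 of the 26 genes with an IDR summit (61.5%) and in 5 of the 13 without one (38.5%). It was present in 73.2% of large-subunit genes with an IDR summit, 12.3% of all genes with one other than the small-subunit genes and 10.1% of all protein-coding genes. The shorter core CTTT, sought on the gene's strand within 10 bases of the TSS and often part of such a run, gave 46.2% and 38.5% in the small-subunit genes with and without a summit and 9.37% of all protein-coding genes. The DRE, TATCGATA, which reads the same on both strands, lay within 50 bp of 5 of the 26 summits (19.2%), against 35 of 1414 other promoter summits (2.48%). From 250 bases before to 50 after the TSS it was in 7 of the 26 promoters (26.9%). It was also in 5 of the 13 promoters without a summit (38.5%). The shares were 10.8% in all other genes with an IDR summit and 8.96% in all protein-coding promoters. The small-subunit promoters that lacked a summit were thus not poorer in the DRE. The core of motif 1, GGTCACAC, sought on both strands, was in 4 of 26 promoters (15.4%) and in 2 of 13 without a summit. It was in 8.72% of all other genes with an IDR summit and in 7.39% of all protein-coding promoters. The other letters, also sought on both strands, were rare. GAGAGA was within 50 bp of 0 of 26 summits, TGTTTAC of 0, CACGTG of 0, and TATTTAC and TGTTTGC of 1 each, against 2.97%, 4.67%, 1.27%, 6.58% and 3.54% of the other promoter summits. TATTTAC and TGTTTAC share TTTAC, and with 26 summits a share of a few percent is 1 gene. TATAAA was at none of the 39 genes between 40 and 15 bases before the TSS, against 2.84% of the other genes with an IDR summit and 7.88% of all protein-coding genes. No interval was computed for this 0, and with so few genes it was not tested against either share.

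**Figure D4:**
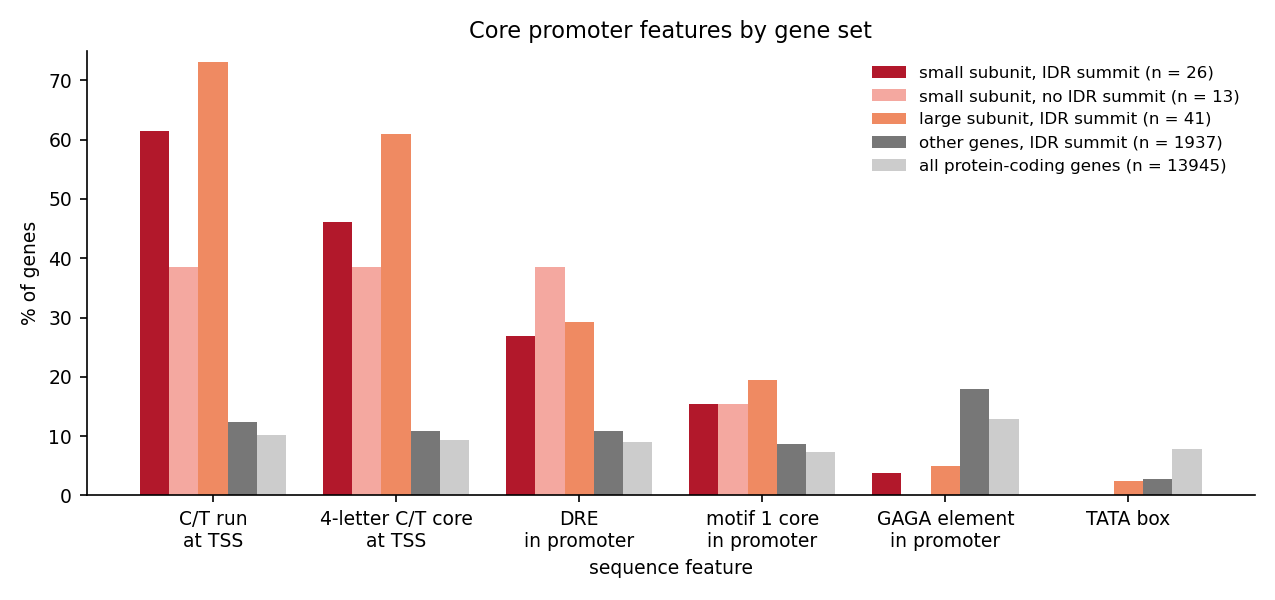
Percentage of genes with each sequence feature, as bars from 0, for small-subunit genes with (n = 26) and without (n = 13) an IDR summit, large-subunit genes with one (n = 41), all genes with one other than the small-subunit genes (n = 1937) and all protein-coding genes (n = 13945). The pyrimidine run and the DRE are more frequent in the ribosomal sets than in the other genes, and the GAGA element is less frequent.

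Among genes that act with the small subunit, 7 of 23 assembly factors and initiation partners had an IDR summit (30.4%, Wilson interval 15.6 to 50.9), against 14.1% of all protein-coding genes. The highest were eIF1, which guards start codon choice, with a score of 702 (rank 343, summit at −338 bp), and Rack1, a scaffold protein on the head of the subunit, with 452 (rank 812, summit at −28 bp). The others were NHP2, l(3)72Dn, Mybbp1A, eIF3a and Fib, the gene of the rRNA methyltransferase fibrillarin, with scores from 368 to 172. Of 14 genes that regulate ribosomal protein genes or growth, 9 had an IDR summit (64.3%, 38.8 to 83.7), against the same 14.1%. They were REPTOR, a transcription factor restrained by TOR, with 881 (rank 207), Dref with 577 (rank 508), M1BP with 364 (rank 1189), Thor, the translation repressor 4E-BP of flies, with 339, foxo with 300, Mnt with 244, Max with 240, InR with 186 and Xrp1 with 169. Only Thor and InR of these 9 had their summit within 60 bp of a TSS, at −7 and −19 bp. Both lists were chosen with results of these data known, so their shares are descriptions.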

How the data were processed

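The data were 4 deposited interval lists on dm6: 1 list of 30000 candidates per replicate, 1 of 30000 from both replicates pooled and the IDR list of 4089. Per the file headers, the candidates were derived by the authors from alignments and 1 control file, and the candidates were then filtered by IDR. The sources used here name no aligner, peak caller or IDR threshold. The deposited score (column 7) has a scale of its own in each list and ranked the peaks. The deposited −log10 q values are capped, with 3363 pooled intervals at the highest value, and served as an alternative ranking only. Sonicated fragments were 200 to 800 bp, per the labels. Read totals were not used here, so depth is unknown.

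Genes came from Ensembl release 115 on dm6 coordinates, sequence from RefSeq on that assembly, and no interval ran past a chromosome arm. The summit (column 2 plus column 10) was read as 1-based. For each gene the highest-scoring summit within 500 bp of any TSS was used. All 39 genes enter the counts of summits, but RpS28-like was in neither part when the head was compared with the body and platform. Medians of position and rank rest on the genes with a summit in the list concerned. The 10 highest by IDR score, second copies and genes without an IDR summit carry values from all lists, except 5 genes whose own values are not reported here. The members, gene lists and letters searched were chosen with earlier results of these data known. The length of pyrimidine run, the distance of 60 bp and the second copies printed as sequence were chosen after the data were seen. Of the partner and regulator lists, 4 symbols (Nob1, Pno1, Tor and Larp) were not matched and are not analysed here. No group contrast exists, so no test was made. Counting was checked on simulated summits. Python 3.11.15, pandas 2.3.3, numpy 2.4.6 and scipy 1.17.1 were used. Alternatives are given in the closing section.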

Additional observations from a re-analysis of the deposited data

How the results depend on the processing

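The count of small-subunit genes with an IDR summit stayed between 25 and 27 of 39 with TSS windows of 250 and 1000 bp, at the canonical TSS alone, for the gene with the nearest protein-coding TSS, with intervals that overlap a TSS, and without either replicate. The share of all protein-coding genes changed as well: 10.9% at 250 bp, 16.8% at 1000 bp and 11.9% at the canonical TSS. It was 10.6% by nearest protein-coding TSS, 8.15% by overlap and 14.1% without either replicate. Among the 2044 highest IDR peaks the count was 19, against 8.05% of all protein-coding genes. With any pooled candidate it was 33, against 41.6%. It was 21, against 10.5%, when the highest candidates of both replicates were also required, a choice made after the data were seen. Merging copies left 25 of 32 proteins with a summit. The median position ranged from −29 to −14 bp over its alternatives. The share of summits upstream was 64.0% without replicate 1 and 80% without replicate 2, and 85.2% to 89.5% in 3 other settings that changed it. The median rank of 1425 became 1682 when ranked by −log10 q, where most members are tied, and 1034 among the 2044 highest IDR peaks, which by construction drops the lower ranks. Pyrimidine runs were found in 21 of 39 genes, in 22 with a minimum of 6 bases and in 20 with 8, and the DRE within 100 bp of 7 of 26 summits. No paired analysis was possible because there is only 1 group.

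With 2 replicates, no reads and no peaks from untagged flies, whether these promoters would give summits without CG3407-GFP was not tested. A summit places enrichment to within the fragment length and does not show contact with a base.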
